A study of Coprinopsis cinerea with 6 samples.

Results

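Among the abundant transcripts of the young gill of Coprinopsis cinerea, 58 of 13615 gene models were almost lost when SRR1 was mutated. C. cinerea is an ink cap mushroom and a laboratory model of fruiting body development, and SRR1 is a transcription factor that the series title ties to the shaping of spores. The study sequenced RNA of the gill in 3 libraries of an SRR1 mutant and 3 libraries of the wild type, all taken from young fruiting bodies. The labels give no age in days, culture condition or kind of mutation, and do not say whether the mutant is 1 clone or whether replicates came from separate fruiting bodies. Levels are in CPM, the read pairs of a gene scaled to a common total of gene-assigned read pairs per library, with no other scaling. A gene was taken as a member when its mean over the wild type libraries was at least 100 CPM and its ratio, (wild type mean + 0.5) over (mutant mean + 0.5), was at least 8. The members were thus chosen by their levels in both genotypes, so their loss in the mutant describes the choice and is not tested here.

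Gills are the plates under the mushroom cap, and their surface layer, the hymenium, carries the basidia. A basidium is the cell in which nuclei fuse, meiosis takes place and haploid spores are then budded off on thin stalks. In ink caps the basidia of a cap pass through these steps nearly together, and the ripe spores have thick, darkly pigmented walls. Spore formation calls for new cell wall, membrane and storage material to be made within a short time. The files and the supplied reference table pair none of the deposited identifiers with a gene name or product, so what each member encodes is not stated. The genes are given by scaffold, start and end as in the deposited table, and no source used here names the genome build of these scaffolds. For the same reason SRR1 itself and markers of gill cell types were not looked up among the models. In bulk tissue, fewer cells of a type and less RNA per cell cannot be told apart.

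The libraries held 18333896 to 20014106 gene-assigned read pairs in the mutant and 18816585 to 24373334 in the wild type, so that 1 CPM stands for 18.3 to 24.4 read pairs. Spearman correlations over all gene models were 0.992 to 0.993 among mutant libraries, 0.971 to 0.986 among wild type libraries and 0.954 to 0.975 between the genotypes. Wild type replicate 3 stood farthest from the mutant libraries, and wild type replicates 2 and 3 were the least alike pair of one genotype. No pair of libraries agreed within counting error (chi-square of at least 23.2 per degree of freedom). Against the median of all tested genes the plain CPM scale is shifted: without scaling factors that median log2 fold change was 0.21, against 0.01 with TMM factors. The log2 fold changes (mutant over wild type) given below are from edgeR with TMM factors, and the CPM are unscaled.

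Most abundant transcripts lay within 2-fold of each other in the 2 genotypes. Of 2281 models that averaged at least 100 CPM in the wild type, the ratio of wild type to mutant lay between 0.5 and 1 for 1135 and between 1 and 2 for 1013, and the 58 members are 2.54% of the 2281. Between ratios of 2 and 4 there were 54 models, between 4 and 8 there were 14, and between 8 and 16 there were 20. The members thus continue a thin tail, in which 38 had a ratio of at least 16 and 17 of at least 64. Among the most abundant models the share was larger, with 12 of the 104 models with at least 1000 CPM in the wild type (11.5%).

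**Figure D1:**
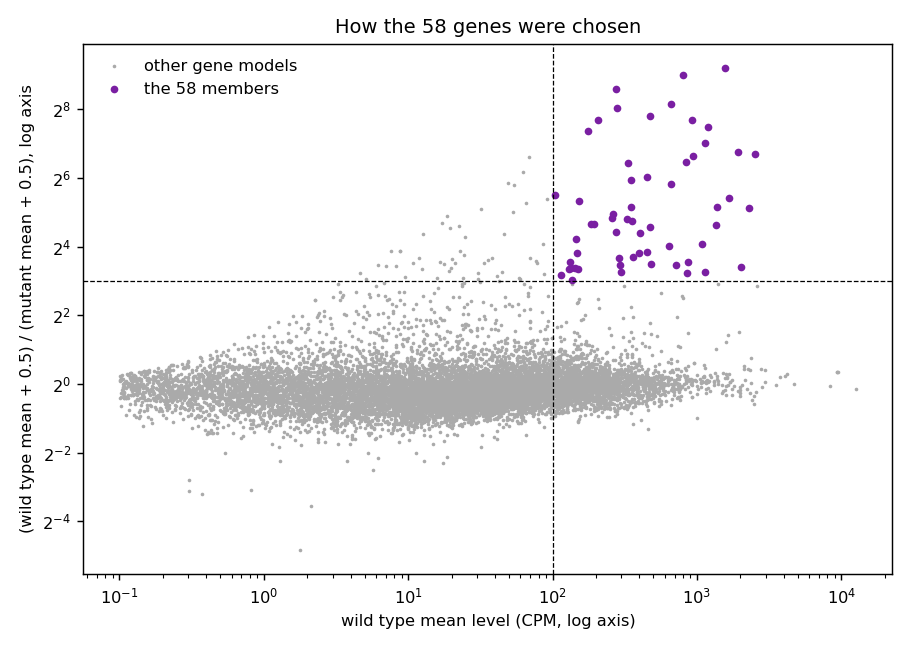
Wild type mean level (CPM, log axis) against the ratio of wild type to mutant (log axis) for the gene models averaging at least 0.1 CPM in the wild type. Grey points are other models, purple points the 58 members, and the dashed lines mark the thresholds of 100 CPM and a ratio of 8. The members reach ratios of 588, while most models of the same abundance lie near 1.

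Both thresholds cut through a continuous range. Just inside the ratio threshold lay scaffold_1:1513341 with a ratio of 8.22, scaffold_11:1104515 with 9.06 and scaffold_9:869481 with 9.43. Just outside it were 3 models of scaffold_4, at 3177776, 913299 and 2035726, with ratios of 7.59, 7.54 and 7.27. The member with the lowest wild type mean was scaffold_13:743501 at 105 CPM, followed by scaffold_11:1104515 at 115 and scaffold_8:1393956 at 129 CPM. Models that met the ratio but fell short of the level were led by scaffold_9:628046, scaffold_8:669925 and scaffold_12:287122, with wild type means of 91.7, 86.96 and 85.98 CPM.

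The 6 models just outside also had lower values in every mutant library than in any wild type library. Of all tested genes 9.54% had this order. These 6 were picked by the same contrast as the members, so nothing is read from it. Outside the ratio threshold, scaffold_4:3177776 had 160.0, 182 and 213 CPM in the mutant libraries, against 1067, 606 and 2551 CPM in the wild type libraries, with values in the order of replicates 1, 2 and 3. The model at scaffold_4:913299 had 16.1, 19.3 and 17.2 CPM in the mutant libraries, against 108, 82.4 and 216 CPM in the wild type libraries. For scaffold_4:2035726 the values were 42.9, 44.3 and 40.7 CPM in the mutant libraries, against 221, 264 and 454 CPM in the wild type libraries. The lowest wild type library stood well above the highest mutant library in each of them. Below the level threshold, scaffold_9:628046 had 1.64, 1.45 and 1.97 CPM in the mutant libraries, against 53.95, 51.1 and 170.0 CPM in the wild type libraries. The next, scaffold_8:669925, had 10.6, 8.44 and 8.24 CPM in the mutant libraries, against 89.4, 79.96 and 91.6 CPM in the wild type libraries. At scaffold_12:287122 the values were 4.75, 4.75 and 4.30 CPM in the mutant libraries, against 59.9, 81.4 and 117 CPM in the wild type libraries. Wild type replicate 3 was the highest in all 6.

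Together the 58 genes took up a sizeable part of the wild type gill transcriptome and almost none of the mutant one. They held 0.139, 0.137 and 0.140% of the gene-assigned read pairs in mutant replicates 1, 2 and 3, against 3.15, 2.42 and 5.50% in wild type replicates 1, 2 and 3. The mean shares were 0.139% ± 0.00167 in the mutant and 3.69% ± 1.61 in the wild type (SD, n = 3 each). The mutant libraries were nearly alike, whereas the wild type libraries differed more than 2-fold, with replicate 3 the highest. Weighted by coding length, in TPM (read pairs per coding length, scaled to a common total), the members made up 0.0967, 0.0945 and 0.107% of the mutant libraries and 2.32, 1.90 and 4.09% of the wild type libraries. The median member stood at 11.6, 11.9 and 12.9 CPM in the mutant libraries and at 349, 303 and 479 CPM in the wild type libraries. Over the 2223 other models that averaged at least 100 CPM in the wild type these medians were 194, 191 and 195 CPM in the mutant and 189, 194 and 182 CPM in the wild type.

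In all 58 members every mutant library lay below every wild type library, against 9.54% of all tested genes with this order. All 58 were also lower at an adjusted p under 0.05 in the edgeR quasi-likelihood test, where 6.99% of tested genes were, and nothing is read from either count, since the same contrast chose the members. Their log2 fold changes ran from -10.44 to -3.29, with a median of -4.99, against a median of 0.01 over all 11683 tested genes. The separation was widest for scaffold_2:3768017, whose lowest wild type library was 375 times its highest mutant library. It was narrowest for scaffold_3:9225, at 2.48 times.

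**Figure D2:**
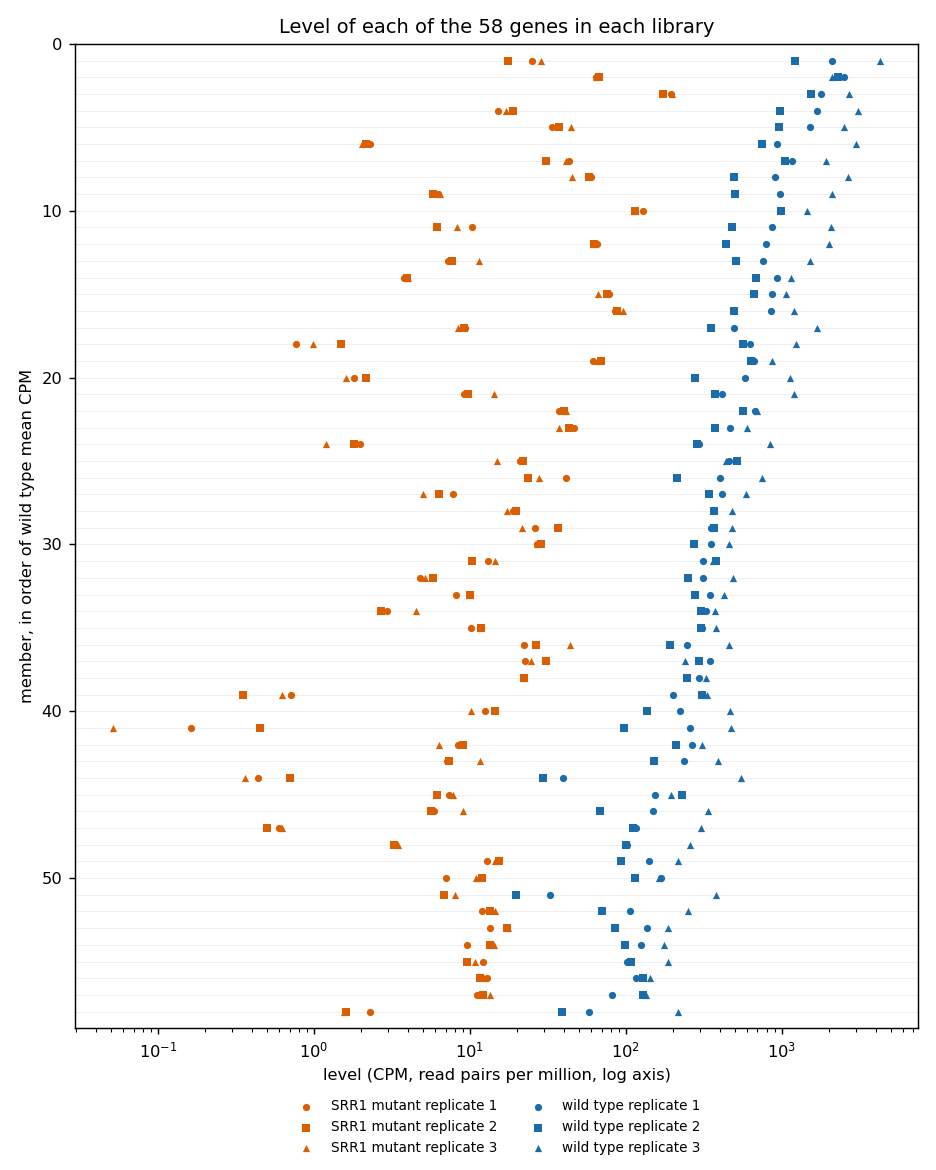
Level in CPM (log axis) of each of the 58 genes, 1 row a gene in order of its wild type mean, in the 3 mutant libraries (orange) and the 3 wild type libraries (blue), with a marker shape for each replicate. In every row the orange points lie left of the blue ones, and wild type replicate 3 (blue triangles) is most often the rightmost.

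The 12 members that averaged at least 1000 CPM in the wild type are given first, with values in the order of replicates 1, 2 and 3. The highest mean was that of CopciAB_356192.T0, a plus strand model of 3 coding exons and 807 coding bp at scaffold_7:1444856-1445775. It had 25.2, 17.6 and 28.6 CPM in the mutant libraries, against 2116, 1222 and 4281 CPM in the wild type libraries, a log2 fold change of -6.96 ± 0.53 SE. CopciAB_416872.T0, a minus strand model of 3 coding exons and 2649 coding bp at scaffold_1:2986769-2989543, had 64.1, 67.6 and 64.5 CPM in the mutant libraries, against 2526, 2286 and 2094 CPM in the wild type libraries. The second was the steadiest of these 12 in the wild type, and the first ranged more than 3-fold there, but in neither did the genotypes come near to overlap. Per length the first stood at 23.8 TPM in the mutant and 2568 TPM in the wild type, and the second at 19.9 TPM in the mutant and 725 TPM in the wild type, so that the first was the more abundant transcript on the TPM scale by a wider margin than in CPM.

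Scaffold_1 carried 2 more of the 12, and these kept the largest remainders of the 12 in the mutant, relative to the wild type. The gene at scaffold_1:2215977-2217502, with 6 coding exons and 1251 coding bp, had 196, 174 and 198 CPM in the mutant libraries, against 1776, 1543 and 2710.4 CPM in the wild type libraries. Likewise scaffold_1:1483442-1485069, with 7 coding exons and 1266 coding bp, had 129, 115 and 115 CPM in the mutant libraries, against 983, 994 and 1455 CPM in the wild type libraries. These mutant means, 189.6 and 119.8 CPM, were the highest of all 58 members, at 9.43% and 10.5% of the wild type mean.

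Losses to under 1% of the wild type mean were seen in 4 of the others. The gene at scaffold_4:1110591-1113617, with 4 coding exons and 2874 coding bp, had 15.3, 18.9 and 16.99 CPM in the mutant libraries, against 1694, 979.9 and 3075 CPM in the wild type libraries. The gene at scaffold_12:11632-12965, with 5 coding exons and 1071 coding bp, had 2.29, 2.15 and 2.02 CPM in the mutant libraries, against 932, 752 and 2997 CPM in the wild type libraries. At scaffold_6:364839-365651, the model of 4 coding exons and 636 coding bp had 6.22, 5.85 and 6.47 CPM in the mutant libraries, against 969, 503 and 2117 CPM in the wild type libraries. These 3 kept 0.890%, 0.138% and 0.517% of the wild type mean, and in each wild type replicate 3 was the highest and replicate 2 the lowest. On scaffold_10, the gene at scaffold_10:73990-75643 (5 coding exons and 1431 coding bp) had 10.4, 6.15 and 8.29 CPM in the mutant libraries, against 862, 480.2 and 2077 CPM in the wild type libraries, which left 0.725%.

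The remaining 4 of the 12 kept between 2.32% and 5.83%. A model with 16 coding exons and 1809 coding bp, at scaffold_8:923511-926145, had 33.6, 37.4 and 44.6 CPM in the mutant libraries, against 1511, 963 and 2513 CPM in the wild type libraries. Another of 3 coding exons and 1182 coding bp, at scaffold_5:3306422-3307724, had 43.4, 30.7 and 41.2 CPM in the mutant libraries, against 1162, 1053 and 1912 CPM in the wild type libraries. Next came scaffold_5:1260733-1262419, with 8 coding exons and 1323 coding bp and 60.2, 58.1 and 45.1 CPM in the mutant libraries, against 908, 491 and 2661 CPM in the wild type libraries. Wild type replicate 3 was the highest library in all 3 of these, and most clearly so at scaffold_5:1260733, where it was 5.42 times replicate 2. For scaffold_11:1707947-1709732, with 9 coding exons and 1347 coding bp, the values were 65.6, 62.8 and 61.6 CPM in the mutant libraries, against 794, 441 and 2023 CPM in the wild type libraries.

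On the length-scaled TPM scale, 6 members ranked among the 100 most abundant models of the wild type gill, while none ranked among the first 1000 in the mutant. The median rank was 8229 in the mutant and 516 in the wild type, of 13615 models. The best rank kept in the mutant, 1013, was that of scaffold_1:3284455-3284765, the shortest member with 4 coding exons and 159 coding bp, which ranked 55 in the wild type. It had 22.3, 26.6 and 44.1 CPM in the mutant libraries, against 248, 192 and 461 CPM in the wild type libraries.

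The remaining level in the mutant differed widely among the members. The mutant mean was 3.64% of the wild type mean for the median member, with quartiles at 1.02% and 8.07%. It was under 1% for 14 members and under 5% for 36. In absolute terms 4 members had a mutant mean under 1 CPM, 24 under 10 CPM and 56 under 100 CPM. The others among the 2281 abundant models had a median mutant level of 101% of the wild type.

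The 5 deepest losses were nearly silent in the mutant. At scaffold_11:2085536-2086763, with 5 coding exons and 603 coding bp, the level was 0.164, 0.450 and 0.0518 CPM in the mutant libraries, against 257, 96.9 and 472 CPM in the wild type libraries, leaving 0.0806%. At scaffold_2:3768017-3768718, with 2 coding exons and 639 coding bp, it was 0.764, 1.50 and 0.984 CPM in the mutant libraries, against 628, 562 and 1229 CPM in the wild type libraries, leaving 0.134%. The first of these rested on 3, 9 and 1 read pairs in the mutant libraries and the second on 14, 30 and 19, so their remainders are poorly determined. The gene at scaffold_12:11632, given above, is the third, with 42, 43 and 39 read pairs in the mutant libraries and 22714, 14295 and 56400 in the wild type libraries. A short model of 2 coding exons and 393 coding bp, at scaffold_6:1335698-1336147, had 0.709, 0.350 and 0.622 CPM in the mutant libraries, against 199.8, 306 and 332 CPM in the wild type libraries. The fifth, scaffold_10:76416-77969 with 5 coding exons and 1341 coding bp, had 0.436, 0.700 and 0.363 CPM in the mutant libraries, against 39.8, 29.6 and 547 CPM in the wild type libraries. In these last 2 the mutant libraries were all under 1 CPM, and at scaffold_10:76416 most of the wild type mean came from replicate 3. Their log2 fold changes were -9.15 ± 0.36 SE and -8.92 ± 1.32 SE. Leaving out wild type replicate 3 gave -8.96 and -6.25.

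At the other end, 5 members kept more than 10% of the wild type mean. The largest remainder, 11.8%, was that of scaffold_1:1513341-1515307, with 8 coding exons and 1560 coding bp, which had 13.5, 17.3 and 17.5 CPM in the mutant libraries, against 136, 85.2 and 185 CPM in the wild type libraries. For scaffold_11:1104515-1106143, with 4 coding exons and 1101 coding bp, the values were 11.1, 12.2 and 13.5 CPM in the mutant libraries, against 81.8, 129.7 and 134 CPM in the wild type libraries. The member at scaffold_9:869481-871162, a model with 10 coding exons and 1020 coding bp, had 85.9, 87.9 and 95.9 CPM in the mutant libraries, against 857, 492 and 1207 CPM in the wild type libraries. In each of the 3 the lowest wild type library was still more than 4 times the highest mutant library. The other two, scaffold_1:1483442 and scaffold_1:3284455, were described above.

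Besides the levels, the members shared a pattern among the wild type libraries that the rule did not ask for, although a high value in 1 library also raises the mean on which the rule acts. Wild type replicate 3 was the highest of the 3 libraries in 52 of 58 members (89.7%), compared with 29.6% of the 2223 other abundant models. Replicate 2 was the lowest in 47 members (81.03%), against 32.5% of the others. The full order of replicate 3 above replicate 1 above replicate 2 was found in 46 members (79.3%) and in 20.2% of the others. The median member had 2.05 times as much in replicate 3 as in replicate 2, whereas the median of the other abundant models was 0.915. Replicate 3 was also the highest in every model given above as just outside a threshold. Those models were picked by the same contrast and are no independent comparison. Since replicate 3 was the highest in 29.6% of the other abundant models too, this is not particular to the members, only more frequent in them. These members rest on the same libraries and are not independent of each other. Whether the wild type libraries differ in stage, dissection or handling is not given in the labels, and its part in these values was not tested.

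**Figure D3:**
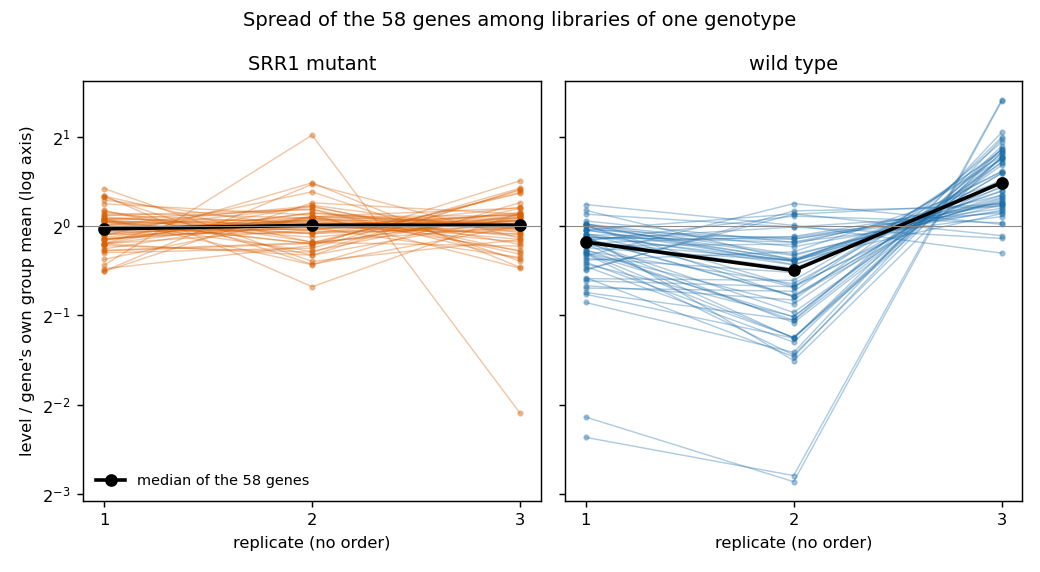
Level of each of the 58 genes in each library divided by that gene's own mean over the libraries of the same genotype (log axis), with the mutant on the left and the wild type on the right; each thin line is 1 gene and the black line is the median. The median runs nearly level in the mutant, where 2 genes range more than 2-fold, and the wild type lines are mostly lowest in replicate 2 and highest in replicate 3.

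The members varied more among wild type libraries than other abundant genes did, and little among mutant libraries. The ratio of the highest to the lowest library had a median of 1.28 in the mutant and 2.05 in the wild type, against 1.20 in the mutant and 1.46 in the wild type for the other abundant models. It reached 3 in the wild type for 19 members (32.8%) and for 1.66% of the others. In the mutant only scaffold_11:2085536 and scaffold_6:1335698, both under 1 CPM there, exceeded 2. The coefficient of variation was larger in the wild type than in the mutant for 51 of 58 members, and for 80.5% of the others.

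The widest spread in the wild type was that of scaffold_3:9225-10767, with 5 coding exons and 1134 coding bp, which had 6.76, 6.85 and 8.03 CPM in the mutant libraries, against 32.9, 19.9 and 382 CPM in the wild type libraries. The gene at scaffold_10:76416, given above, came close to it. The third, scaffold_13:743501-744980 with 2 coding exons and 1413 coding bp, had 2.29, 1.60 and 1.55 CPM in the mutant libraries, against 57.9, 39.2 and 217 CPM in the wild type libraries. In these 3 genes replicate 3 alone carried the mean past 100 CPM. Without wild type replicate 3 the log2 fold change of scaffold_3:9225 was -2.03 in place of -4.59, and that of scaffold_13:743501 was -4.90 in place of -6.09 ± 0.69 SE. Under edgeR the adjusted p of scaffold_3:9225 was 0.0661, 0.0669 and 0.0814 without mutant replicates 1, 2 and 3 in turn, above the threshold of 0.05, and in the edgeR settings tried no other member lost its call. DESeq2 gave scaffold_10:76416 no adjusted p and called the other 57 members lower, where 8.86% of the genes with an adjusted p were.

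A smaller set was even across the wild type libraries. The gene at scaffold_5:3218475-3221117, a single-exon model of 2643 coding bp, had 20.9, 21.9 and 14.9 CPM in the mutant libraries, against 458, 519 and 438 CPM in the wild type libraries. The gene at scaffold_1:906578-906950, with 3 coding exons and 255 coding bp, had 13.04, 10.4 and 14.5 CPM in the mutant libraries, against 315, 381 and 362 CPM in the wild type libraries. Together with scaffold_1:2986769, whose highest library was replicate 1, these were the steadiest members, with the highest wild type library at most 1.21 times the lowest. In none of the 3 was replicate 3 the highest. In the order named, the ratios of these 3 were 23.9, 26.9 and 34.9, against a median of 26.1 over the members. The rule asked every member for a ratio of at least 8, so nothing is read from their size.

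Leaving out wild type replicate 3 and applying the rule to the other 5 libraries kept 51 of the 58 members and added none. The 7 that dropped out were scaffold_1:3284455, scaffold_3:9225, scaffold_1:4103767, scaffold_13:743501, scaffold_1:1513341, scaffold_9:869481 and scaffold_10:76416. As a group the members then held 2.78% of the wild type read pairs in place of 3.69%.

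In gene structure the members were ordinary in length and had few exons for their abundance. The median coding length was 1332 bp, against 1470 bp for the other abundant models and 1113 bp for all models. Lengths ran from 159 to 3078 bp, while the other abundant models, a far larger set in which longer extremes can be met, reached 12114 bp. The longest member, scaffold_8:798501-801940, had 8 coding exons and 12.9, 15.4 and 14.6 CPM in the mutant libraries, against 142, 93.9 and 217 CPM in the wild type libraries. Of the 58, 3 had at most 300 coding bp.

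The median number of coding exons was 4 in the members, 6 in the other abundant models and 4 in all models. Single-exon models were 7 of 58 (12.1%), compared with 3.19% of the other abundant models and 12.7% of all models. Models with at least 10 coding exons were 10.3% of the members and 24.1% of the other abundant models. The member with the most, scaffold_6:99583-101937 with 17 coding exons and 1494 coding bp, had 3.76, 3.95 and 4.04 CPM in the mutant libraries, against 935, 682 and 1142 CPM in the wild type libraries. Gaps between coding exons had a median of 57 bp per gene in the members and 56 bp in the other abundant models, so the introns were equally short. Exon number and length did not order the members by depth of loss: across the 58 genes Spearman's rho of the ratio was -0.23 with coding length and -0.12 with exon number, as a description of genes that share all libraries.

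**Figure D4:**
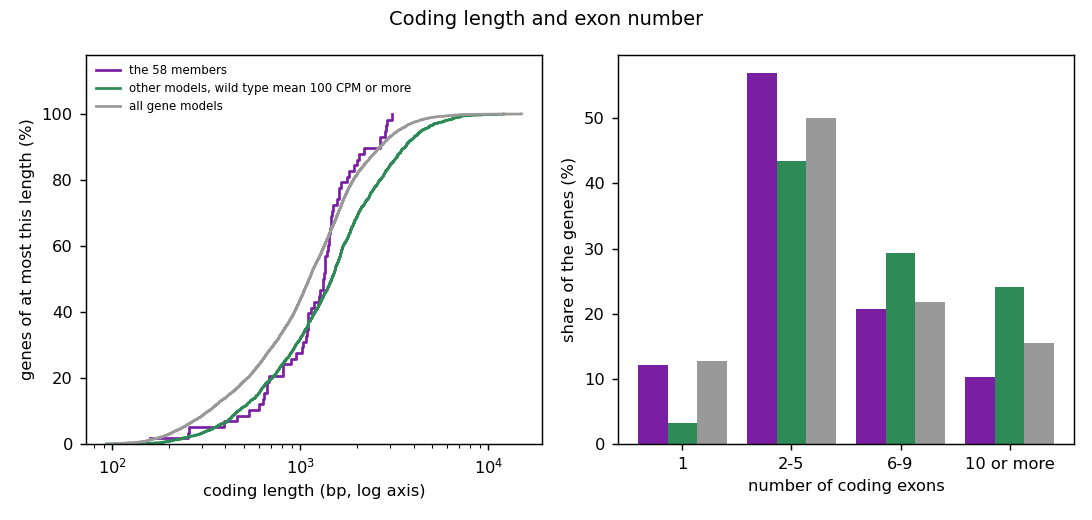
Left, cumulative share of genes (%) by coding length (bp, log axis). Right, share of genes (%) by number of coding exons. Purple is the 58 members, green the other models averaging at least 100 CPM in the wild type and grey all 13615 models. The longest member has 3078 coding bp, in a set far smaller than the other 2. Single-exon models are 12.1% of the members, 3.19% of the other abundant ones and 12.7% of all models.

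Some members had look-alikes in exon structure that kept most of their level. Runs of at least 3 consecutive internal coding exons with identical lengths were searched between every pair of models; such runs can mark related genes, but equal lengths alone do not show that the sequences are related. Of 23 members with enough internal exons, 9 shared such a run with another model (39.1%), compared with 8.89% of the other abundant models and 19.2% of all models. The member with 17 coding exons, scaffold_6:99583, shared runs of 8 exon lengths with scaffold_6:96911, scaffold_5:3316186 and scaffold_6:1867807, of 7 with scaffold_1:937079 and of 5 with scaffold_3:3535731. While it was at 3.92 CPM in the mutant and 919 CPM in the wild type, its neighbour scaffold_6:96911, which ends 306 bp before it on the same strand, had 206 CPM in the mutant and 355 CPM in the wild type. That neighbour fell by 0.99 on the log2 scale (edgeR adjusted p = 0.0319). In the order named, the other 4 had mutant means of 144, 24.9, 17.7 and 5.65 CPM, against wild type means of 125, 19.6, 12.4 and 5.46 CPM, with log2 fold changes between -0.15 and 0.32, none past the threshold.

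Over all members, 10 models that are no members shared such a run with one of 7 members. Of these 10, 1 was lower and 1 was higher in the mutant, where 6.99% and 3.25% of all tested genes were, and their median log2 fold change was 0.02, with a range of -0.99 to 1.11. The one that rose, scaffold_4:2795355, had 7.81 CPM in the mutant and 3.19 CPM in the wild type, and lies beside its member scaffold_4:2792168, which had 73.5 CPM in the mutant and 866 CPM in the wild type. The member at scaffold_1:1513341 shared a run of 6 exon lengths with scaffold_9:416627, which had 3.52 CPM in the mutant and 2.65 CPM in the wild type. The member at scaffold_8:923511 shared 5 with scaffold_9:332375, at 26.8 CPM in the mutant and 34.6 CPM in the wild type, and scaffold_8:798501 shared 4 with scaffold_8:503625, at 631 CPM in the mutant and 835 CPM in the wild type. Most of these partners were less abundant than the member in the wild type; scaffold_8:503625 was more abundant. Pairs of members shared runs as well: scaffold_10:73990 with scaffold_10:76416, and scaffold_11:299693 with scaffold_11:1707947, each with 3 exon lengths. These scaffold_11 genes had 8.80 and 63.4 CPM in the mutant, against 932 and 1086 CPM in the wild type. No member with 2 or more coding exons had a model with all exon lengths identical, out of 51 examined. Multi-mapping reads were counted, so values of related genes may share reads.

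The members were spread over 13 scaffolds and did not sit in 1 region. Of them, scaffold_1, scaffold_6 and scaffold_8 held 7 each, of 1700, 1054 and 832 models, scaffold_4, scaffold_5 and scaffold_11 held 6 each, and scaffold_2 held 1 of 1473. Within 100 kb of the outermost model of a scaffold lay 7 members (12.1%), compared with 4.09% of the other abundant models and 6.75% of all models. On the plus strand of the table lay 36 of 58 (62.1%), compared with 50.9% of the other abundant models and 50.6% of all models. Directly beside another member were 4 of the 58, in 2 pairs, both with the genes on the same strand. That is a larger share than the 0.852% of all models that lie beside a member, and the difference was not tested.

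The first pair lies near one end of scaffold_12. In a stretch of 7 consecutive models that begins and ends with a member, 4 were past the threshold and lower in the mutant. Over all tested genes 6.99% were, and the model at scaffold_12:15731 was not tested. Of these 4, 3 are members, chosen by the same contrast, so nothing is read from the count. At scaffold_12:22435-23100 and scaffold_12:23336-24763 lie single-exon models of 666 and 1428 coding bp, 235 bp apart. The left one had 7.09, 7.34 and 11.7 CPM in the mutant libraries, against 237, 152 and 392 CPM in the wild type libraries. The right one had 9.22, 9.79 and 14.3 CPM in the mutant libraries, against 417, 373 and 1197 CPM in the wild type libraries. In both, wild type replicate 3 was the highest and replicate 2 the lowest, and the mutant level was highest in replicate 3. To their left, beyond 3 models under 2 CPM in both genotypes, lies scaffold_12:14295, which is no member and had 0.164, 0.600 and 0.311 CPM in the mutant libraries, against 11.6, 5.31 and 131 CPM in the wild type libraries (log2 fold change -7.32, edgeR adjusted p = 0.00558). Next to that stands the member scaffold_12:11632. The models that flank this stretch, scaffold_12:7922 with 54.3 CPM in the mutant and 54.6 CPM in the wild type and scaffold_12:26223 with 260.0 CPM in the mutant and 268 CPM in the wild type, were not past the threshold.

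The second pair, scaffold_10:73990 and scaffold_10:76416 on scaffold_10, lies 772 bp apart on the plus strand, and its values were given above. Both genes have 5 coding exons and share the lengths of all 3 internal ones. Their wild type levels differed, with means of 1139.6 and 205 CPM, and so did the rise in wild type replicate 3, which was 4.32 and 18.5 times replicate 2. The models next to them were low: scaffold_10:70689 on the left had 0.344 CPM in the mutant and 0.143 CPM in the wild type, and scaffold_10:78921 on the right had 2.82 CPM in the mutant and 3.27 CPM in the wild type.

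Genes beside the members were mostly not lost with them. The members had 112 direct neighbours that are no members, of which 107 were tested. Of these, 15 were lower in the mutant (14.02%) and 5 higher (4.67%), where 6.99% and 3.25% of all tested genes were. Their median log2 fold change was -0.22, against 0.01 over all tested genes. Among models 2 to 5 places away, 33 of 370 tested ones were lower (8.92%), with a median of -0.03. These shares are descriptions, since no test of the difference was made.

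**Figure D5:**
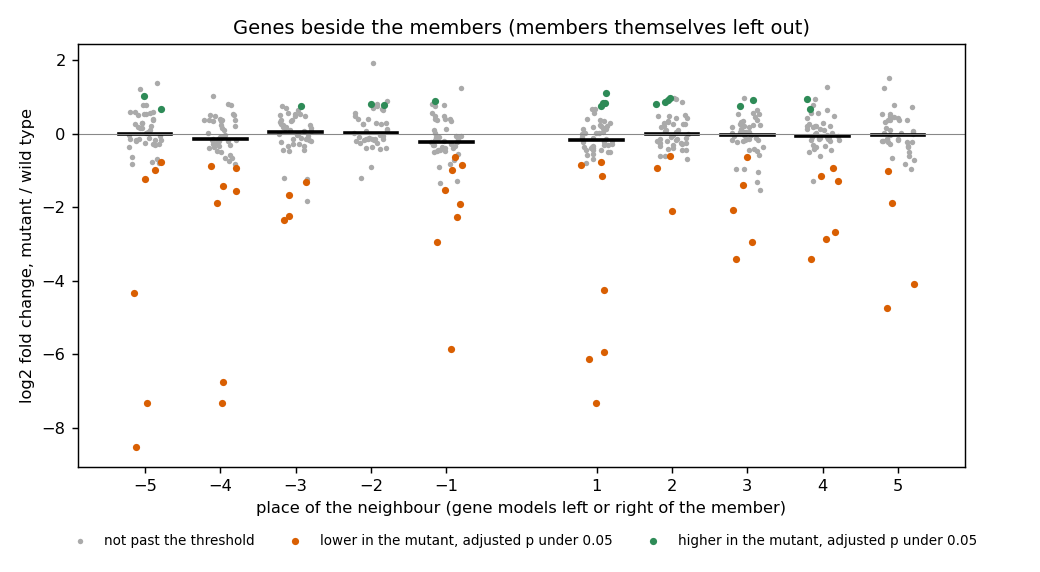
Log2 fold change (mutant over wild type) of the tested models up to 5 places left and right of a member, with members left out; a model near several members is drawn once for each. Orange points were lower and green points higher at an edgeR adjusted p under 0.05, grey points were not past it, and black bars are medians. The median over the genes directly beside a member was -0.22, against 0.01 over all tested genes. The members' own median of -4.99 follows from the rule and is no measure for their neighbours. Of the 107 tested genes directly beside a member, 7 were at least 4-fold lower and past the threshold, where 2.36% of all tested genes were.

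Those 7 of the 107 tested direct neighbours were lower by at least 4-fold and past the threshold, as were 2.36% of all tested genes, and none of the 7 averaged 50 CPM in the wild type. scaffold_12:14295 was described above. On scaffold_4, scaffold_4:660067-662170, which is read away from scaffold_4:664437, had 0.446 ± 0.220 CPM in the mutant and 22.4 ± 14.6 CPM in the wild type (SD, n = 3 each), a log2 fold change of -5.85 (edgeR adjusted p = 0.000107). Facing scaffold_6:160501 end to end, scaffold_6:162620-163835 had 0.368 ± 0.223 CPM in the mutant and 19.6 ± 5.67 CPM in the wild type, a log2 fold change of -5.93 (edgeR adjusted p = 1.37e-05). On scaffold_8, scaffold_8:328249-330198 had 0.140 ± 0.158 CPM in the mutant and 8.79 ± 5.60 CPM in the wild type. These 3 and scaffold_12:14295 met the ratio of 8 but not the level of 100 CPM. On the same scaffold as the third, scaffold_8:1120157-1121181 had 8.12 ± 2.54 CPM in the mutant and 33.7 ± 10.6 CPM in the wild type. On scaffold_12, scaffold_12:546662-548278 had 3.10 ± 1.34 CPM in the mutant and 20.5 ± 9.60 CPM in the wild type, and scaffold_12:864525-864794 had 0.257 ± 0.226 CPM in the mutant and 4.37 ± 1.36 CPM in the wild type. Their log2 fold changes were -6.14, -2.26, -2.94 and -4.24.

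Genes that start back to back with a member, and could share the sequence between them, were read in the same way. At most 1 kb of sequence separated 17 members from a model on the other strand that points away, and 16 of these models, none of them a member, were tested. Of the 16, 2 were lower and none was higher in the mutant by edgeR (adjusted p under 0.05), where 6.99% and 3.25% of all tested genes were, with a median log2 fold change of -0.32 and a range of -2.26 to 1.24. The lowest, at -2.26, is the partner of the member scaffold_8:1122073 and was given above among the 7 direct neighbours. The 3 partners given next changed less. The member scaffold_6:364839, at 6.18 CPM in the mutant and 1196 CPM in the wild type, has such a partner 225 bp away, scaffold_6:365877-366578, with 406 ± 27.04 CPM in the mutant and 429 ± 68.1 CPM in the wild type. Beside scaffold_4:1110591, scaffold_4:1108412-1110118 had 53.3 ± 3.01 CPM in the mutant and 58.9 ± 3.49 CPM in the wild type at a distance of 472 bp. In the same way scaffold_2:3769382-3770281, 663 bp from scaffold_2:3768017, had 15.6 ± 3.42 CPM in the mutant and 20.3 ± 2.56 CPM in the wild type. The log2 fold changes of these partners were -0.28, -0.34 and -0.58, and those of the members beside them -7.82, -7.03 and -9.74. The rule chose the members for a large fall, and these partners were picked after their values were seen. The contrast between them is therefore a description only. No member overlapped another model in its coding span.

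Every library's values were given above for the members picked out by level, remainder, spread, structure or place. The other 29, some of them mentioned as look-alikes or beside a neighbour, had mutant means of 0.574 to 73.5 CPM (median 10.8) and wild type means of 132 to 932 CPM (median 350.0). They kept 0.278% to 9.32% of the wild type mean, with 1 to 12 coding exons and 252 to 2865 coding bp. Of the members near a threshold, scaffold_8:1393956-1395174 with 6 coding exons and 954 coding bp, had 12.9, 11.6 and 12.4 CPM in the mutant libraries, against 116, 128 and 143 CPM in the wild type libraries.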

How the data were processed

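The deposited values are raw counts of read pairs for each gene model. Per the submitters' processing notes, STAR 2.6.1 was used for alignment; per the file headers, featureCounts 2.0.1 assigned pairs to coding exons grouped by transcript, with both ends mapped, chimeric pairs left out, multi-mapping reads included and no strand option. The header lists 7 alignment files for 6 count columns; the entry in excess is a second file of wild type replicate 3 and was not used here. Related genes may therefore share reads, and strands are not told apart. Columns were matched to samples by their descriptions and to groups by their titles. Coding lengths exclude untranslated regions (all 13615 are multiples of 3). Of the deposited identifiers, none matched any of the 13657 genes in the supplied RefSeq table (assembly CC3), so 2 identifiers are printed and the other genes are given by position.

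The members, lists and settings were chosen with earlier results of these data known. Unscaled CPM chose and described the members; TPM used coding length. All models were fitted with edgeR 4.0.16 in R 4.3.3 (quasi-likelihood, TMM factors, default expression filter, genotype only, two-sided, Benjamini-Hochberg over 11683 tested genes, threshold 0.05). Standard errors are the absolute log2 fold change over the square root of F. Since nothing says that replicates are separate cultures or fruiting bodies, its p-values reflect only how these libraries vary, which may be technical variation. The step was tested on simulated counts. Genes given singly were the 12 with the highest wild type mean, the 5 with the lowest and the 5 with the highest remainder, members beside a member, the shortest, the longest, the one with most exons, the 3 most and 3 least variable in the wild type, and 3 on each side of a threshold. Genes shown as neighbours or look-alikes were chosen after their values were seen. Alternatives were other scaling factors, DESeq2 1.42.0, no filter, other thresholds of the rule, medians, TPM, a replicate block and leaving out each library; Python 3.11.15 was used for the rest.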

Additional observations from a re-analysis of the deposited data

How the results depend on the processing

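The choice of members held under most settings. The count of 58 became 63 with TMM or DESeq2 size factors, which kept all 58, 54 with TPM, which kept 51, and 53 with medians; a ratio of at least 16 gave 38 and one of at least 4 gave 72. Leaving out each library gave 51 to 62 members, 57 to 58 of the 58 past the edgeR threshold, a share of 0.138% to 0.139% of mutant and 2.78% to 4.33% of wild type read pairs, and a median remainder of 3.17% to 3.85%. That remainder was 3.14% with TMM and 3.07% with DESeq2 size factors, against 3.64% unscaled, and the mutant share was 0.0993% in TPM. DESeq2 gave no adjusted p for scaffold_10:76416 and called the other 57. Wild type replicate 3 was the highest in 52 members, and in 54 with either scaling, a check chosen after seeing the data. Members beside a member were 4, or 5 within 10 kb.

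The labels do not say whether replicate numbers pair the libraries. Deviations of same-numbered libraries correlated at 0.08, -0.05 and -0.04. Wild type replicate 1 correlated best with mutant replicate 1, replicate 2 with mutant replicate 3 and replicate 3 with mutant replicate 2. With 3 libraries per genotype these values cannot exclude a weak pairing. With the replicate block all 58 stayed past the threshold, and over all genes 703 were lower and 225 higher in place of 817 and 380. With library sizes alone these were 628 and 1041, with upper quartile factors 707 and 667, and without single libraries 480 to 1157 and 53 to 739. Mutant levels under 1 CPM rest on fewer than 20.01 read pairs a library, so remainders there are poorly determined.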
